A study of Mus musculus with 4 samples.

Results

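The late part of the response of mouse fibroblasts to tumour necrosis factor (TNF) was read as the change in RNA level between 2 h and 12 h of TNF, from 1 array at each time. The cells were 3T3 fibroblasts, an immortal embryonic mouse line whose growth depends on serum. All 4 arrays of the series come from cells grown at low density in medium with 10% serum for 24 h and then kept overnight in 0.5% serum. They were harvested without TNF (basal) or after 0.5, 2 or 12 h of TNF. The concentration was 10 ng/ml for the 0.5 h and 12 h samples. For the 2 h sample the title and source name give 2 h of TNF, but its protocol entry is the same as for basal cells and mentions neither TNF nor a concentration. No low-serum sample without TNF was taken 2 or 12 h later, so an effect of TNF and an effect of 10 further hours in low serum cannot be told apart in the step.

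A gene was analysed if its probe set, a group of short oligonucleotides for 1 transcript, had a signal of at least 102 on the 2 h or the 12 h array, a limit set at the 75th percentile of the signals pooled over all arrays. Of 18193 named genes, 6976 met this rule. Lower signals were raised to 102 before the ratio was taken, so the ratio of a gene with 1 signal below it is a lower bound. Such a gene was analysed only through its higher signal, so the direction of its ratio was fixed by this rule. With 1 array per time there is no spread between replicates and no test was possible. In what follows a gene "rose" or "fell" if the 12 h signal was at least 2-fold above or below the 2 h signal, and "held" or "sustained" means within 1.5-fold. All values without a unit are signals, and log2 ratios are 12 h over 2 h. Array signals of different genes are not on a common scale, so levels are compared only within a gene.

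TNF binds its receptor and, through a kinase complex that marks the IkB inhibitors for degradation, releases NF-kB into the nucleus. NF-kB switches on chemokine, adhesion and survival genes and also its own brakes, among them Nfkbia (the inhibitor IkB-alpha) and Tnfaip3 (the ubiquitin-editing enzyme A20). Many early transcripts carry AU-rich elements and decay quickly, whereas other TNF targets accumulate over hours or follow from proteins made in the first wave, such as interferon-type genes. The series title asks how mRNA stability affects the order of inflammatory gene induction; stability itself was not measured by these arrays.

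Promoter stretches of 4 genes that carry the main patterns of the step are shown, to set beside the values that follow. They come from the RefSeq promoter table of GRCm38.p6 and hold the 250 bases before the first listed start, read 5′ to 3′ on the gene's strand. Capitals mark matches, on either strand, to 4 motifs: the NF-kB motif, the CCAAT box (CCAAT), the cell cycle homology region (TTTGAA), and the core of the interferon-stimulated response element, which is GAAA, any 2 bases and GAAA again. Overlapping matches run together in the capitals. Bst2, which rose, lies behind chr8:71537473-71537722 on the minus strand, with 1 NF-kB match and an overlapping pair of response element matches. Cxcl10, high at 2 h and lower at 12 h, lies behind chr5:92348890-92349139 on the minus strand, with 1 response element match, NF-kB matches at 2 places and a CCAAT box. Tnfaip3, which also fell, lies behind chr10:19015411-19015660 on the minus strand, with 2 NF-kB matches. Hmmr, a mitotic spindle gene that fell, lies behind chr11:40733438-40733687 on the minus strand, with 5 CCAAT boxes on the opposite strand, read here as ATTGG.
Bst2: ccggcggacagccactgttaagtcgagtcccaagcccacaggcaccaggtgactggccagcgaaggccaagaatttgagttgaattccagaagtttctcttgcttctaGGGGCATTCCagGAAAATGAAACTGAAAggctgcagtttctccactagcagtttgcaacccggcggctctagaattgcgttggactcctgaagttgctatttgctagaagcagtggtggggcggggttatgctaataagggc
Cxcl10: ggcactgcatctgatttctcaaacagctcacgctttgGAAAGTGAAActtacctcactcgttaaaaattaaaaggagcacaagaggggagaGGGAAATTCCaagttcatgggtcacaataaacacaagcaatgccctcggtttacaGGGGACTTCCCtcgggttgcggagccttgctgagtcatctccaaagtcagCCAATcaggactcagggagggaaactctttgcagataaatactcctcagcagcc
Tnfaip3: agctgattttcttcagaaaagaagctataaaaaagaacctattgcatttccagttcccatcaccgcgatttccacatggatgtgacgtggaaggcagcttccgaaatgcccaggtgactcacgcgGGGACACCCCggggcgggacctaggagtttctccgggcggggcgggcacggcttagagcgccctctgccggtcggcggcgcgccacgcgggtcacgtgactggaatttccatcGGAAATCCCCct
Hmmr: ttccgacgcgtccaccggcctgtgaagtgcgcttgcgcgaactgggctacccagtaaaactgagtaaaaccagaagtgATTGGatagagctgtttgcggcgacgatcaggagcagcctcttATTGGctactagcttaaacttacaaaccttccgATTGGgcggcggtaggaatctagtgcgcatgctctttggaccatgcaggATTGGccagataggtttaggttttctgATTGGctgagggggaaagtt

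Between 2 h and 12 h, 10 of the 6976 genes rose (0.143%), 35 fell (0.502%) and 6633 stayed within 1.5-fold (95.1%). The median log2 ratio was -0.09, so the deposited values lean slightly towards lower at 12 h. After loess, which removes a signal-dependent trend between arrays, 7118 genes were analysed and the median was 0.02; 16 rose (0.225%) and 25 fell (0.351%). Quantile normalization gave 16 rises and 24 falls. All 10 rises and 24 of the 35 falls passed 2-fold both as deposited and after loess. The preponderance of falls in the deposited values therefore depends in part on the scaling, and the loess value is given beside each main ratio. At the lower limit of 1.5-fold, 72 genes were higher (1.03%) and 271 lower (3.88%); after loess these were 149 (2.09%) and 170 (2.39%).

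The precision of a ratio depends on the signal. The scaled median absolute deviation of the log2 ratio was 0.338 for probe sets with a mean signal between 64 and 128, 0.241 between 256 and 512 and 0.151 above 1024. For probe sets with a signal between 16 and 32 it was 0.600. Over the genes analysed it was 0.231 in this step, against 0.163 from 0.5 h to 2 h and 0.138 from basal to 0.5 h. The spread holds real changes as well as array noise, and the 2 were not separated. The median signal of all probe sets was 20.7 at 2 h and 19.8 at 12 h, and the 3′ to 5′ ratio of the Actb control probes, a sign of RNA integrity, was 1.24 and 1.26. Fibroblast markers were present at both times: of 15 fibroblast markers 11 reached 102 at 2 h and 10 at 12 h, with a summed signal of 35990 and 33530. Vim was 9758 and 9091, whereas Thy1, Dcn, Lum and Fap lay below 102 on both arrays. Of the fibroblast markers, Prrx1 (792 to 509) and Twist1 (248.5 to 161) were lower by over 1.5-fold, Prrx1 with a log2 ratio of -0.64 and Twist1 of -0.63, and by less than 1.5-fold after loess. Markers of other cell types were mostly below 102. None of 8 endothelial markers reached 102, with a summed signal of 88.5 and 76.7. Cd14 alone of 12 leukocyte markers reached it, at 12 h, and the leukocyte sum was 279 and 291. Krt19 alone of 8 epithelial markers did so (124 at 2 h), and Fabp4, a fatty acid binding protein, alone of 9 adipocyte markers (1639 and 1450).

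**Figure D1:**
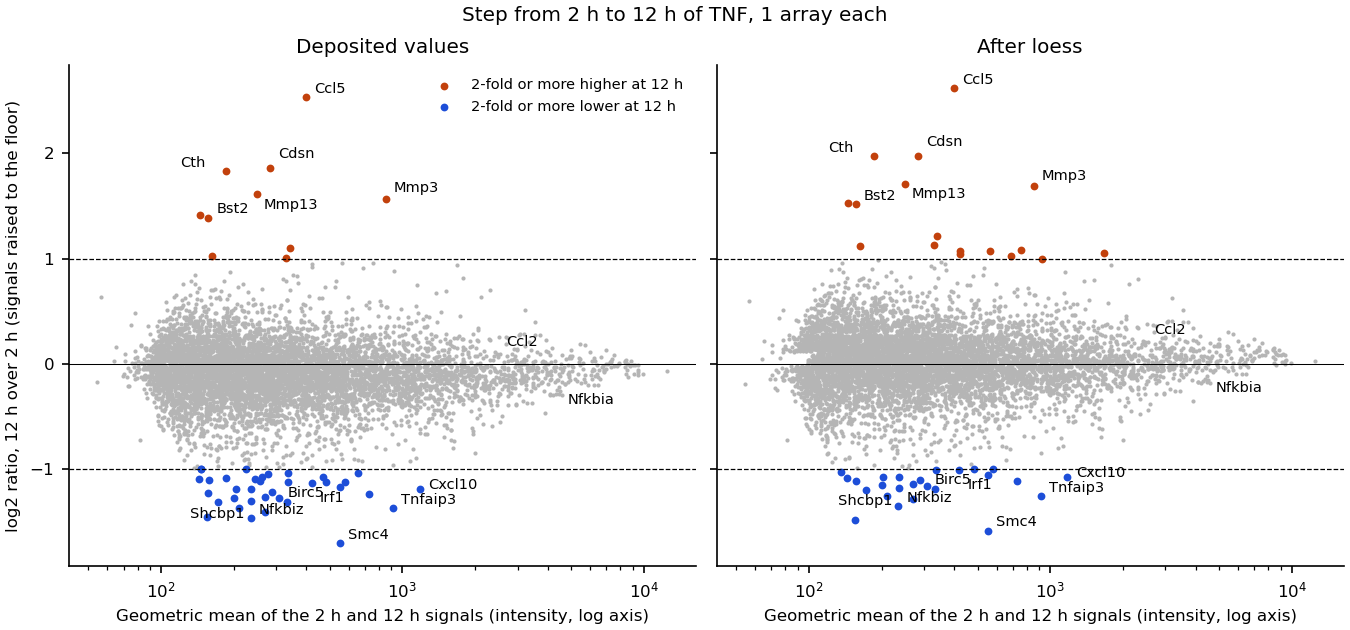
Log2 ratio of the 12 h to the 2 h signal (vertical) against the geometric mean of both signals (horizontal, log axis), 1 point per gene, for deposited values on the left and after loess on the right; dashed lines mark 2-fold. As deposited 10 genes rose and 35 fell, and after loess 16 and 25. Points are drawn from rounded ratios, so Ctnnal1, just outside 2-fold as deposited, lies on the lower line at -1.0 and is marked as a fall. Ccl5 is the highest point in both panels and Smc4 the lowest.

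A chemokine and a pair of matrix proteases were among the 10 rises. Ccl5, a CC chemokine that attracts T cells and monocytes, went from a signal of 3.53 without TNF to 13.6 after 0.5 h, 165 after 2 h and 957 after 12 h. With signals raised to 102 it was the largest rise of the step, 5.79-fold (log2 2.53, 2.62 after loess), and the arrays at 0.5 h, 2 h and 12 h each lay above the one before. Mmp3 (stromelysin-1), a protease that cleaves matrix proteins, read 282, 329, 495 and 1471 on the basal, 0.5, 2 and 12 h arrays, a log2 ratio of 1.57 (1.69 after loess). Mmp13, a collagenase, read 36.02, 55.6, 143 and 437 in the same order, with a log2 ratio of 1.61 (1.71 after loess). Both proteases had begun to climb by 2 h and were highest on the 12 h array. Each of these 3 genes is represented by 1 probe set.

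Of the other rises, Bst2, Cth, Cdsn, U90926 and Slc2a6 lay within 1.5-fold of the limit or below it on every earlier array, whereas Lonp1 and H2-K1 were at least 2-fold above it throughout. Bst2 (tetherin), an interferon-inducible membrane protein that holds budding virus at the cell surface, read 97.9, 99.7, 91.8 and 266; it was flat through 2 h and then rose at least 2.62-fold (log2 1.39, 1.52 after loess). Cth, the enzyme that makes cysteine from cystathionine, read 100.3, 114, 95.1 and 362, a rise of at least 3.56-fold (log2 1.83, 1.97 after loess). Cdsn (corneodesmosin), an adhesion protein of cornified epithelium, read 125, 98.6, 149 and 538, with a log2 ratio of 1.86 (1.97 after loess). For U90926 the signals were 75.3, 51.5, 78.7 and 270, and for the sugar transporter gene Slc2a6 they were 45.9, 42.9, 114 and 233. Both read lowest at 0.5 h, and their log2 ratios were at least 1.41 for U90926 and 1.03 for Slc2a6. Lonp1, a protease of the mitochondrial matrix, read 296, 244, 233 and 499, with a log2 ratio of 1.10. H2-K1, a classical class I molecule that presents peptides to CD8 T cells, read 206, 295, 231 and 467, with a log2 ratio of 1.01 (1.13 after loess). Its 4 probe sets ran from 0.30 to 1.97. With the probe set that was brightest on the 2 h and 12 h arrays the ratio was 1.71, and with signals averaged over all 4 before the ratio it was 0.54. In addition, class I genes are closely similar in sequence, and the size of its gain is uncertain.

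With signals raised to 102, 9 of the 10 genes that rose stood at least 2-fold above basal at 12 h; the exception was Lonp1, whose basal signal was 296. None of the 10 was 2-fold above basal at 0.5 h or at 2 h on that scale. That count depends on the limit, since Ccl5, Mmp13 and Slc2a6 lay below 102 in basal cells and above it at 2 h. Just inside 2-fold lay H2-K1 and Slc2a6. Just outside lay Serpinf1 (542 to 1055, log2 0.96), H2-D1 (403 to 782, 0.96) and C1s1 (304 to 587, 0.95). After loess these 3 passed 2-fold, together with Ifitm3 (1213 to 2319), Cyb5r1 (504 to 945) and Trib3 (307 to 583).

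**Figure D2:**
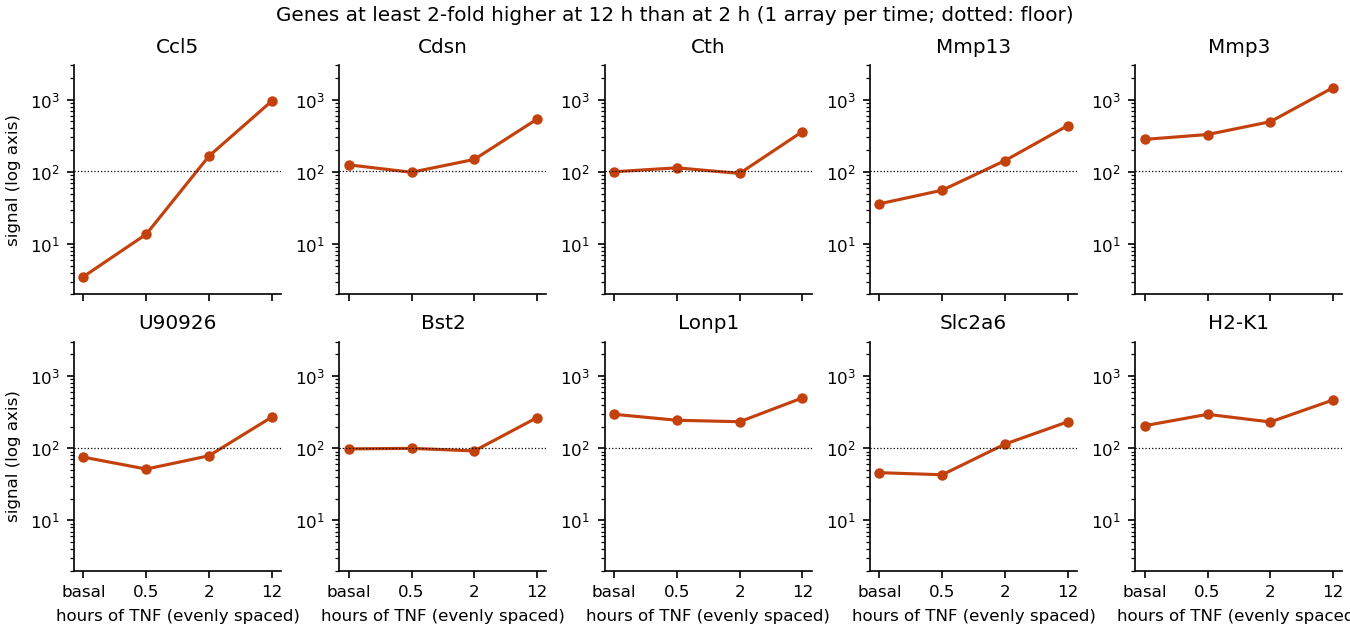
Signal (log axis) on the basal, 0.5, 2 and 12 h arrays for each of the 10 genes that rose between 2 h and 12 h; the dotted line is the limit of 102. In every panel the 12 h point is the highest, and Ccl5 goes from 3.53 to 957 while Bst2 and Cth stay near the dotted line until 2 h.

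Several genes of class I antigen presentation were higher at 12 h. Of 12 genes analysed, 1 rose and none fell, and 5 (41.7%) were at least 1.5-fold higher, against 1.03% of all genes. The list median was 0.27 (0.38 after loess), with -0.09 (0.02) for all genes. Besides H2-K1 and H2-D1 these were Tapbp (tapasin, which loads peptide onto class I) at 1815 and 2946, Erap1 (the peptidase that trims peptides) at 100.4 (just below the limit) and 176, and the immunoproteasome subunit Psmb10 at 373 and 577. Their log2 ratios were 0.70 for Tapbp, 0.79 for Erap1 and 0.63 for Psmb10. Erap1 met the limit only at 12 h, so only a ratio above 0 was possible for it. H2-D1 has 9 probe sets, which ran from -1.09 to 1.25. Of the general chaperones that class I folding shares, Canx had -0.20, Calr -0.16 and Pdia3 -0.12. The 31 subunits of the constitutive proteasome had a median of -0.08 and all held within 1.5-fold, against 95.1% of all genes.

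Interferon response genes moved in both directions. Of 20 analysed, 1 rose (Bst2) and 2 fell (Irf1 and Socs3), and the median was 0.04 (0.14 after loess). Of all genes 0.143% rose and 0.502% fell. The balance depends on the setting: 2 rose and 2 fell after loess, 3 rose and 2 fell with a floor at the 50th percentile, and 8 rose and 2 fell with one at the 30th. Ifitm3, which blocks virus entry, read 698, 784, 1213 and 2319 with a log2 ratio of 0.94. Rtp4 had a ratio of 0.53, Adar 0.46 and Ddx58 (the RNA sensor RIG-I) 0.39, whereas Stat3 had -0.51 and Ifit2 -0.49. Irf1 is a transcription factor that drives such genes, and Socs3 an inhibitor of cytokine receptor signalling. Xaf1 read 43.3 at 2 h and 132 at 12 h, so its ratio of at least 0.37 is bounded by the limit; its measured ratio was 1.6.

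The complement and acute phase list had 4 genes analysed, all with a ratio above 0, a median of 0.48 (0.52 after loess) and none past 2-fold as deposited. For Lcn2, which met the limit only at 12 h, a ratio above 0 was fixed by the rule of entry, and it counts in that median. Of all genes 35.2% had a ratio above 0 as deposited, and 3870 of 7118 after loess. C1s1, a protease of the first complement component, had 0.95 and C1ra, its partner, 0.32. Ptx3, a secreted pattern recognition protein, held at 2843 and 3114. Lcn2, which binds bacterial iron carriers, read 11.1, 11.3, 20.04 and 158. It was counted as at least 1.56-fold higher, and its measured ratio was 7.89-fold.

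Of 14 metalloproteinases and inhibitors, 2 rose, Mmp3 and Mmp13, and the list median was 0.06 (0.18 after loess). Of all genes 0.143% rose, 0.225% after loess. The inhibitors held: Timp1 had a ratio of 0.24, Timp2 of -0.08 and Timp3 of -0.21. Mmp14, a membrane-bound collagenase, had -0.36 and the gelatinase Mmp2 had -0.14. Mmp10, a close relative of Mmp3, read 31.8 and 95.3 at 2 and 12 h and so was not analysed. The next highest ratio of the list was 0.41, for Plat, the tissue plasminogen activator. Collagens and other matrix genes, 30 in all, had a median of 0.06 (0.17 after loess) with 27 (90.0%) within 1.5-fold, against 95.1% of all genes.

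No gene of the unfolded protein and amino acid stress list passed 2-fold in the deposited values with the brightest probe set of each gene. With signals averaged over a gene's probe sets 2 rose. The median of its 21 genes was 0.18 (0.30 after loess), and 4 (19.0%) were at least 1.5-fold higher, against 1.03% of all genes. These were Trib3, a pseudokinase induced by the factor Atf4, at 307 and 583; Ppp1r15a, which restores translation after stress, at 139 and 239; the serine enzyme gene Shmt2 at 887 and 1497; and Asns, asparagine synthetase, at 1693 and 2647. Trib3 had a log2 ratio of 0.92 and passed 2-fold after loess, Ppp1r15a had 0.79, Shmt2 0.75 and Asns 0.64. The 2 probe sets of Trib3 had 0.92 and 1.31. Genes of endoplasmic reticulum folding differed from these: Hspa5 had 0.08 and Hsp90b1 -0.39.

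The sustained plateau was read in genes already above basal. At 2 h, 35 genes were at least 2-fold above basal. Between 2 h and 12 h none of these rose, 19 (54.3%) held within 1.5-fold, 9 were 1.5-fold to 2-fold lower, 6 (17.1%) fell and 1, Psmb10, was higher by 0.63 on the log2 scale. The set median was -0.53 (-0.42 after loess), and after loess 22 held and 6 fell. These genes were chosen with the 2 h array, which is also the denominator of the ratio. The absence of rises among them depends on the limit. Ccl5, Mmp13 and Slc2a6, which rose, lay below 102 in basal cells and so were not 2-fold above basal at 2 h with signals raised. With a floor at the 50th percentile 5 of 100 genes above basal at 2 h rose further, and 10 of 422 with one at the 30th. A second set was chosen without the 2 h and 12 h arrays: 24 genes stood 2-fold above basal at 0.5 h, and 22 of them were analysed. The other two, Fos (97.9 to 22.6) and Edn1 (68.2 to 69.5), were below the limit at both times. None of the 22 rose, 12 (54.5%) held, 4 were 1.5-fold to 2-fold lower and 6 (27.3%) fell, with a median of -0.52 (-0.45 after loess). Of those counted as held, Btg2 (110 to 47.6), Zfp36 (145 to 79.3) and Lif (122 to 68.8) did so only with the 12 h signal raised to the limit. In this second set 10 genes, Btg2, Zfp36 and Lif among them, were no longer 2-fold above basal at 2 h. The sets overlap: 14 genes are in both, and Nfkbiz, Tnfaip3, Cxcl10 and Irf1 are 4 of the 6 falls in each. The shares within 1.5-fold lay below the 95.1% of all genes in both sets, and the shares that fell lay above 0.502%.

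Chemokines held and lost. Ccl2, which attracts monocytes, had signals of 170.4, 1641, 2851 and 2961 on the basal, 0.5, 2 and 12 h arrays; its plateau from 2 h to 12 h (log2 0.05, 0.17 after loess) was 17.4-fold above basal. Ccl7, a related monocyte chemokine, read 66.1, 417, 681 and 825 (0.28). Ccl20, which acts on Ccr6, read 12.5, 584, 714 and 625 (-0.19). The CC chemokine list, with Ccl5 and Ccl9 (124 to 180.1), had 6 genes analysed, 1 rise (0.143% of all genes rose), no fall and a median of 0.17 (0.28 after loess). By contrast no gene of the CXC and CX3C list had a ratio above 0 in the deposited values, and 1 of 5 did after loess (Cxcl12, 0.04). The share of all genes above 0 was 35.2% as deposited, and 3870 of 7118 after loess.

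Cxcl10, which attracts activated T cells through Cxcr3, read 66.6, 535, 1777 and 780.3; it peaked at 2 h and fell by 1.19 on the log2 scale (1.07 after loess) while still 7.68-fold above basal with the limit applied. Cxcl1, which attracts neutrophils, peaked earlier, with 151, 3211, 1278 and 658 (-0.96). Cx3cl1 went from 834 to 475 (-0.81), but its 4 probe sets ran from -1.97 to 0.16 and averaging their signals gave -0.07. Cxcl5 went from 1909 to 1319 (-0.53), and Cxcl12, which was not induced, held at 841 and 797. The median over these 5 genes was -0.81 (-0.69 after loess), which is the value of Cx3cl1. The ratios of the 2 chemokine lists overlapped, since Ccl20 lay below Cxcl12.

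Of 11 NF-kB feedback inhibitors analysed, none rose, 2 fell, Tnfaip3 and Nfkbiz, and 7 (63.6%) held within 1.5-fold. Of all genes 0.502% fell and 95.1% held. The median was -0.17 (-0.06 after loess), and with signals averaged over a gene's probe sets 1 fell. Nfkbia read 1843, 7476, 5826 and 5134, a ratio of -0.18 (-0.07 after loess), with 5 probe sets between -0.66 and -0.18. Tnfaip3 read 268, 2521, 1463 and 568 and fell by 1.37 (1.25 after loess); its 2 probe sets had -1.69 and -1.37, and it remained 2.12-fold above basal. Nfkbiz, an atypical nuclear IkB protein needed for some secondary NF-kB targets, read 132, 836, 390.3 and 142 and fell by 1.46 (1.35 after loess), back to within 1.07-fold of basal. Its 3 probe sets ran from -1.46 to -1.10, and averaging their signals, some below the limit, gave -0.66. Nfkbie (IkB-epsilon), slower to appear, read 36.5, 86.4, 885 and 576 (-0.62). Tnip1, which acts with A20, went the other way, with 234, 255, 410.1 and 679 (0.73, 0.85 after loess). The NF-kB subunits held: Rela had 0.23, Nfkb2 -0.03 and Relb -0.32.

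Among other induced genes, the adhesion receptor Vcam1 read 269, 618, 1293 and 973 (-0.41) and Icam1 read 19.1, 21.5, 228 and 152 (-0.58). Tlr2, the receptor of bacterial lipoproteins, read 104, 335, 833 and 546 (-0.61). The survival gene Birc3 held at 370.1 and 379, and Birc2 went from 359 to 278. The metal-binding protein gene Mt2 read 289, 503, 943 and 1239 (0.39). These had 12 h signals above basal, by 5.24-fold for Tlr2, 3.61-fold for Vcam1, 1.49-fold for Icam1 with the limit applied, 3.29-fold for Birc3 and 4.28-fold for Mt2.

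**Figure D3:**
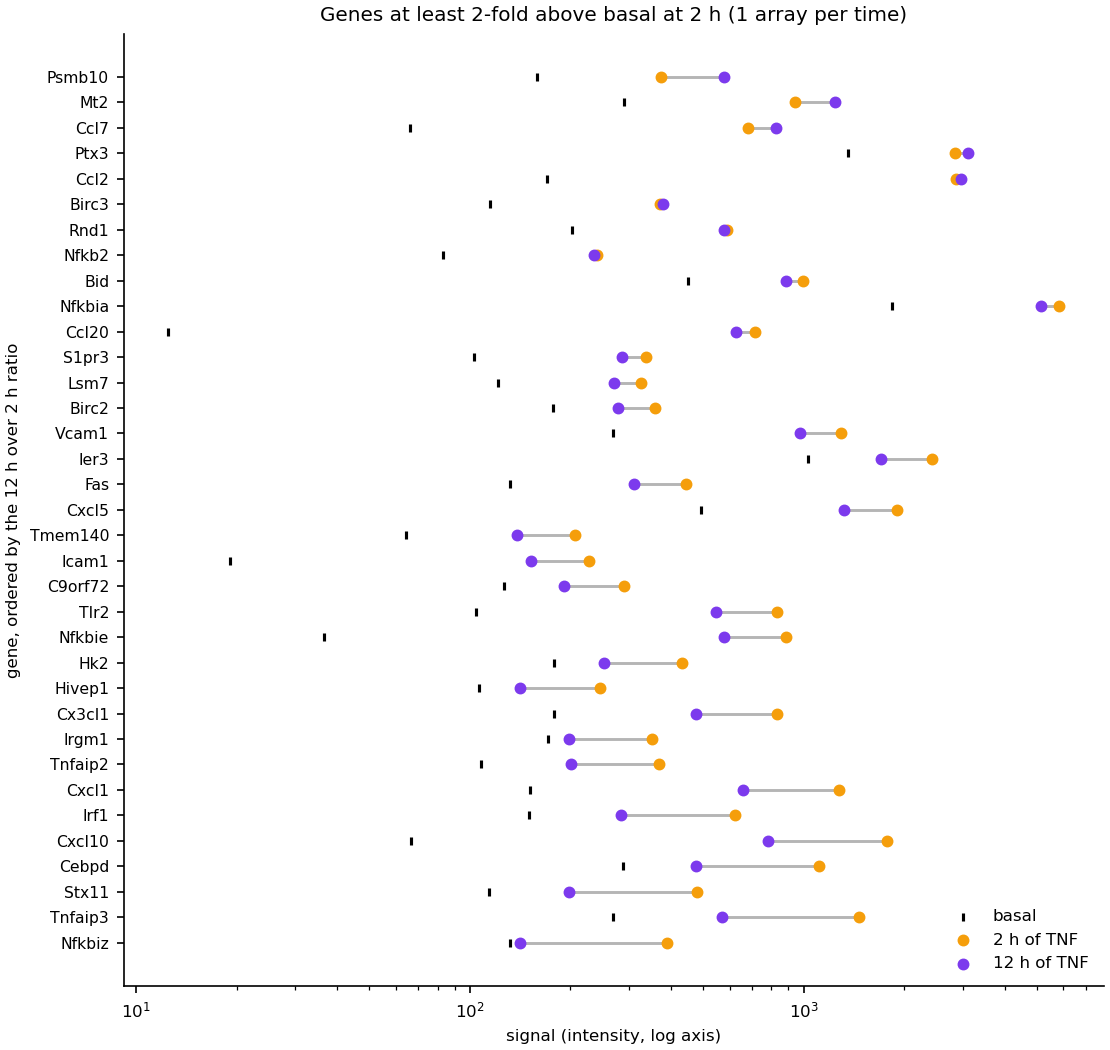
Signal (horizontal, log axis) on the basal (tick), 2 h (orange) and 12 h (purple) arrays of the 35 genes at least 2-fold above basal at 2 h, ordered by their 12 h over 2 h ratio. From Psmb10 at the top to Nfkbiz at the bottom, 19 of the 35 pairs lie within 1.5-fold, and the 6 lowest rows are the genes that fell.

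The 35 late losses had different histories. Of them, 6 were 2-fold above basal at 2 h: Tnfaip3 and Cxcl10, which were still above basal at 12 h, and Nfkbiz, Stx11, Cebpd and Irf1, which were back within 2-fold of it. Irf1 read 151, 950, 621 and 284 (-1.13, -1.01 after loess). Cebpd, a transcription factor of the acute phase response, read 288, 330.3, 1114 and 474 (-1.23, -1.11 after loess, -0.98 with its probe sets averaged). Stx11, a syntaxin of vesicle fusion, read 114, 187, 479 and 198 (-1.27, -1.16 after loess). Irf1 was highest at 0.5 h, and Cebpd and Stx11 at 2 h. A further 5 genes were near basal at both times, and 23 went from near basal at 2 h to at least 2-fold below basal at 12 h. Egr1 was below basal at 2 h and at 12 h.

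Immediate early factors, the transcription factors that cells switch on first after a stimulus, were mostly lower again at 12 h. Of 21 analysed, 4 fell as deposited and 2 after loess, 20 had a ratio below 0 (19 after loess), and the median of the 21 was -0.51 (-0.40 after loess). Of all genes 0.502% fell, 0.351% after loess, and 64.8% were below 0, 45.6% after loess. With a floor at the 50th percentile 8 of the list fell. Their median by step was 0.29 from basal to 0.5 h, -0.74 from 0.5 h to 2 h and -0.51 from 2 h to 12 h. Egr1, a zinc finger factor, read 2174, 3688, 681 and 325 (-1.07, -0.95 after loess). Klf10 read 377, 755, 372 and 151 (-1.30), Fosl1 read 355, 622, 439 and 189 (-1.21, or -0.89 with its probe sets averaged), and Junb read 323, 688, 356 and 168 (-1.09, -0.97 after loess). Nr4a1, an orphan nuclear receptor, went below the limit, from 117 to 46.1, after 736 in basal cells. Myc held at 300.1 and 290.3, and Ier5 had a ratio of 0.05. For Egr1, Klf10, Fosl1 and Junb the 12 h signal was the lowest of the 4 arrays.

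Ptgs2, the inducible cyclooxygenase of prostaglandin synthesis, read 1116, 1574, 712 and 328 and fell by 1.12 (1.0 after loess); its 2 probe sets had -1.35 and -1.12. Socs3 read 266, 173, 337 and 131 (-1.37, -1.25 after loess, -0.92 with its probe sets averaged). Nab2, a co-repressor of Egr factors, read 292, 219, 310.4 and 129 (-1.27). The Ptgs2 signal lay below basal at 2 h already and was lower still at 12 h. The list of prostaglandin genes had 3 analysed, with Ptger4 at -0.60 and Pla2g4a at -0.34.

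Regulators of mRNA decay were lower in part. Of 20 analysed, none passed 2-fold and the median was -0.12 (-0.01 after loess), near that of all genes. Zfp36l2, a relative of tristetraprolin that binds AU-rich elements, went from 1472 to 838 (-0.81), the decapping enzyme Dcp2 from 197 to 115 (-0.77) and Rc3h2 (roquin-2) from 576 to 347 (-0.73). Zfp36 (tristetraprolin) read 95.6, 552, 145 and 79.3, so that its peak at 0.5 h had passed before the step began. Elavl1 (HuR), which stabilises AU-rich transcripts, held at 679 and 688.

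Members of 4 lists of the mitotic machinery made up 9 of the 35 falls. The kinetochore genes Cenpp (233 to 108, log2 -1.10) and Ska1 (217 to 95.2, -1.09), which are not in the lists, fell too. In the lists 90 genes were analysed. None rose, 9 fell and all 90 had a ratio below 0. Of all genes 0.502% fell and 64.8% were below 0. After loess 6 of the list genes fell and 88 were below 0, against 0.351% and 45.6% of all genes. The median was -0.66 (-0.55 after loess), and 51 genes (56.7%) were at least 1.5-fold lower, 41 after loess, against 3.88% and 2.39% of all genes. The median of these lists was -0.11 from basal to 0.5 h and -0.26 from 0.5 h to 2 h, and 0 genes of them passed 2-fold in those steps. Cells in low serum leave the division cycle, and no untreated array at 12 h was made, so the part of TNF in these values cannot be told apart from that of time in low serum.

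Smc4, the ATPase core of condensin that compacts chromosomes, had signals of 1737, 1337, 993 and 306 and was, with signals raised to 102, the largest fall of the step (-1.70, -1.58 after loess, -1.0 with probe sets averaged). Its 3 probe sets ran from -1.70 to -0.55, so the other 2 were lower as well but by less than 2-fold. Mki67, the coat protein of mitotic chromosomes used as a proliferation marker, read 616, 597, 481 and 235 (-1.03, -0.92 after loess). Of 21 genes of condensin, cohesin and chromosome structure, 2 fell and the median was -0.34 (-0.22 after loess). The condensin subunits Smc2 (-0.67), Ncapg (-0.66), Ncapd2 (-0.61) and Ncaph (-0.55) lay below the cohesin subunits Smc1a (-0.39), Rad21 (-0.31) and Smc3 (-0.30).

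Spindle, kinetochore and cytokinesis genes had the lowest median of the 4 lists. Of 41 analysed, 5 fell as deposited, 3 after loess and 2 with probe sets averaged, 29 were at least 1.5-fold lower, and the median was -0.72 (-0.62 after loess). Shcbp1, which acts at the midbody, read 683, 554, 439 and 166 (-1.40, -1.28 after loess). Dlgap5, a spindle microtubule protein, read 387, 349, 273 and 109.8 (-1.31, -1.20 after loess); with its 2 probe sets averaged the ratio was -0.49. Birc5 (survivin), of the chromosomal passenger complex, read 1028, 998, 857 and 394 (-1.12, -1.0 after loess). Hmmr read 531, 467, 378 and 176 (-1.11, -0.99 after loess), with 5 probe sets between -1.11 and -0.19 whose average gave -0.72, and Cdca3 read 1140, 1027, 935 and 459 (-1.03). In all 5 genes the order of signals was basal, 0.5 h, 2 h and 12 h from high to low. Ckap2, Spc25 and Nusap1 each had -0.98, just outside 2-fold.

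Of 19 mitotic kinases and cyclins 1 fell, Melk, with 222, 294, 239.7 and 103 (-1.22, -1.11 after loess); the list median was -0.66 (-0.54 after loess). Bub1 of the spindle checkpoint had -0.95, Ccnb2 (cyclin B2) -0.90, Aurka -0.86, Plk1 -0.84 and Cdk1 -0.66. Of 9 kinesin motors of mitosis 1 fell, Kif23, a motor of the central spindle, with 403, 370.0, 308 and 135 (-1.19, -1.07 after loess); its 3 probe sets ran from -1.20 to -0.33. The kinesin median was -0.56 (-0.51 after loess), with Kif20a at -0.94 and Kif4 at -0.82.

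Genes of G1/S and DNA replication were lower by less. Of 36 analysed none passed 2-fold, and 30 had a ratio below 0 (28 after loess), against 64.8% of all genes (45.6% after loess). The median was -0.25 (-0.15 after loess). Ccna2 (cyclin A2) went from 766 to 409.5 (-0.90) and Tk1 (thymidine kinase) from 621 to 362 (-0.78). Of 14 inhibitors of cyclin-dependent kinases and p53 targets none passed 2-fold, and the members diverged. Cdkn1a (p21) went from 184 to 89.6 (-0.86 with the limit applied, so the drop is a lower bound) and Cdkn2c (p18) from 274 to 179 (-0.61), whereas Gadd45a went from 195 to 299.7 (0.62), Cdkn2b (p15) from 674 to 924 (0.46) and Cdkn2a from 294 to 379.7 (0.37).

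**Figure D4:**
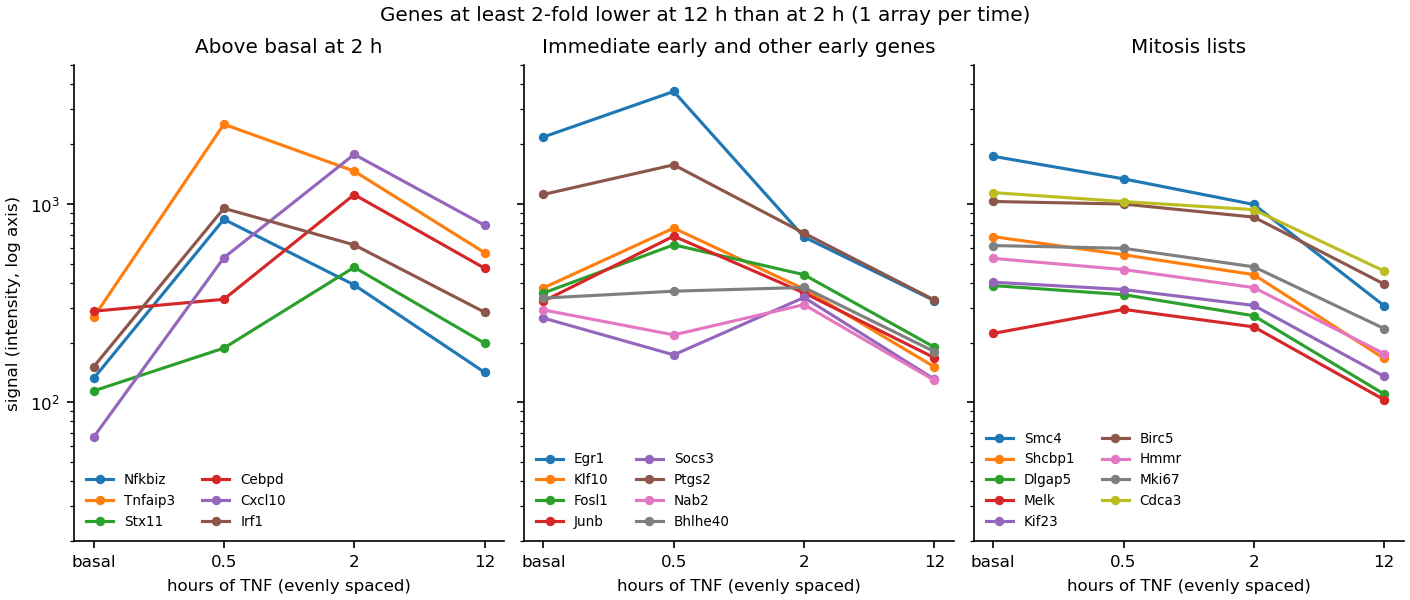
Signal (log axis) on the basal, 0.5, 2 and 12 h arrays for genes that fell between 2 h and 12 h, split into genes above basal at 2 h, early genes, and genes of the mitosis lists; times are evenly spaced. Genes of the left panel peak at 0.5 or 2 h, such as Cxcl10 at 1777, whereas most lines of the right panel slope down through all times and end between 103 and 459.

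Further falls lay outside the lists. Hmgb3, a chromatin protein, read 535, 502, 523 and 211 (-1.31). Plagl1, a zinc finger factor, went from 277 to 87.4 (-1.45), and Cdo1, cysteine dioxygenase, from 415 to 174 (-1.26). Cdo1 degrades cysteine and Cth, which rose, makes it. The taurine transporter gene Slc6a6 read 1308, 1313, 829 and 369 (-1.17). For the 10 genes that fell and had other probe sets at 102 or more, these pointed the same way in all 10, and in 4 genes all of them passed 2-fold. Just inside 2-fold lay Zfp267 and Ddx6, and just outside lay Ctnnal1 (207 to 104), Myo1e (202 to 92.3) and Spc25 (435 to 220.4).

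**Figure D5:**
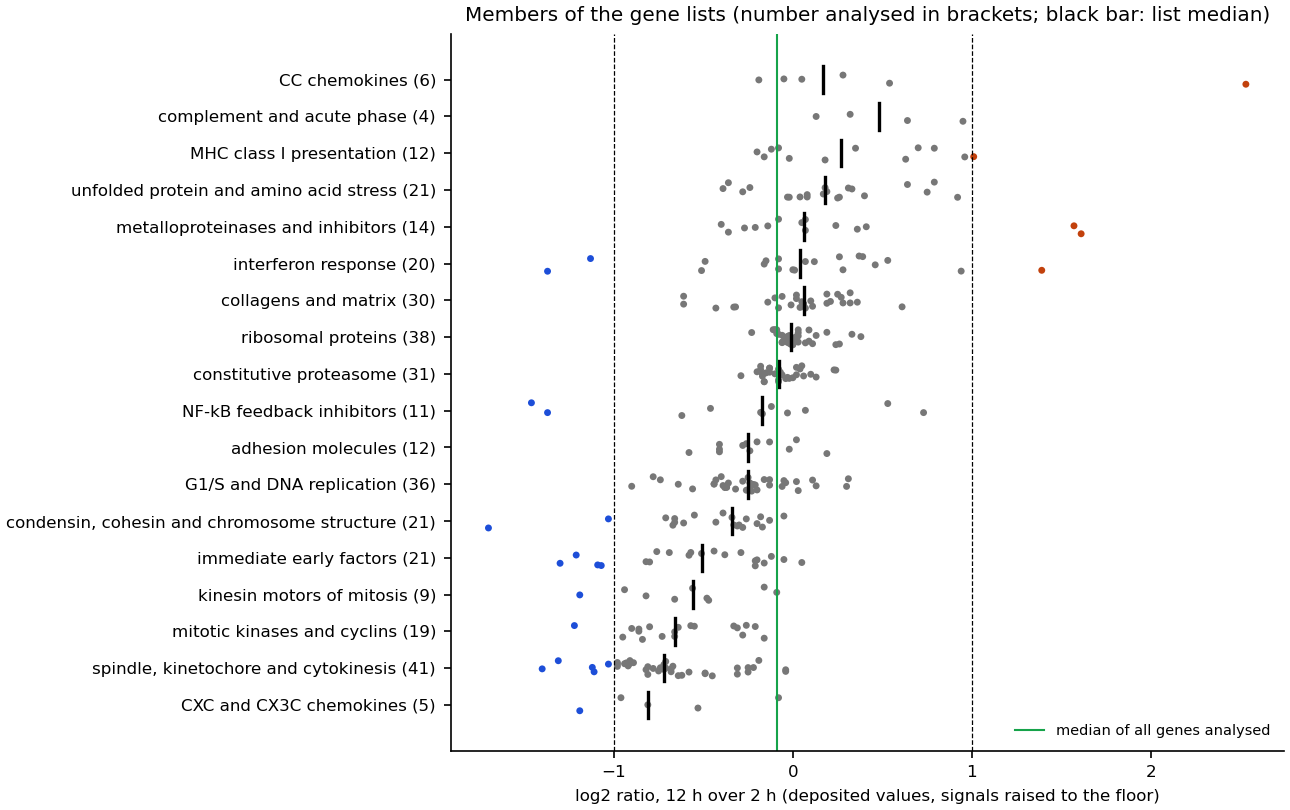
Log2 ratio of the 12 h to the 2 h signal for the members of 18 gene lists, 1 point per gene, with the list median as a black bar and the median of all genes, -0.09, as a green line; dashed lines mark 2-fold. The mitosis lists and the immediate early factors lie to the left of the green line for nearly all members, ribosomal proteins lie close to it, and Ccl5, at 2.53, is the point farthest to the right.

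Genes of basic cell functions changed little, as did most genes, since 95.1% of all genes held within 1.5-fold. All 38 ribosomal protein genes held within 1.5-fold, with a median of -0.01 that became 0.10 after loess. The 10 reference genes had a median of -0.11 (0.01 after loess), from -0.28 for Tubb5 to 0.03 for Actb. Contractile genes, 24 in all, had a median of -0.02 (0.09 after loess) and all held within 1.5-fold. The signs of these small medians flip with the scaling, so no direction is read from them.

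The limit of 102 hides ratios of genes that are low on 1 array. On the measured signals 9 further genes were 2-fold higher at 12 h and 29 were 2-fold lower. Besides Lcn2 and Xaf1, the higher ones included Ubd, a ubiquitin-like protein induced by TNF and interferon, at 43.2 and 142; Cd74, the invariant chain of class II molecules, at 60.1 and 131; and the cholesterol exporter Abca1 at 39.7 and 104. The lower ones included Nrk at 115 and 25.9, Hivep3 at 167 and 39.8, and the mitosis genes Cdc25c at 118 and 45.0 and Aspm at 179 and 78.9. Scatter is wider at these signals, as given above, and these genes are not in the counts of rises and falls.

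Promoter letters were counted as a description beside the groups. The NF-kB motif was found in 7.01% of 27025 promoters of the table and in 8.56% of the 5750 promoters of genes analysed. It was in 9 of 14 promoters matched for the chemokine and feedback inhibitor lists (64.3%), in 3 of 4 matched among the genes above basal at 2 h that fell, and in 2 of 8 matched among the genes that rose, Bst2 and H2-K1. The response element core was in 3.04% of all promoters, 2.54% of those of genes analysed, and 2 of the 8 of genes that rose, Mmp13 and Bst2. It was also in 2 of 20 matched among the genes that fell (10.0%), Cxcl10 and Cdca3. The CCAAT box was in 34.5% of all promoters, 36.7% of those analysed and 47 of 71 matched for the mitosis lists (66.2%). The cell cycle homology region was in 16.3%, 10.5% and 26 of 71 (36.6%). Among the 6 matched mitosis list genes that fell, the CCAAT box was in 4 (66.7%) and the homology region in 1 (16.7%). Both strands were searched, no test was made, and a match is not evidence of a bound site.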

How the data were processed

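RNA of 4 samples, 1 per group, was hybridised to Affymetrix Mouse Genome 430 2.0 arrays from 8 µg of total RNA, per the labels' protocols. The deposited values are intensities on a linear scale, 1 per probe set and array; the sources used here do not give the algorithm or the scaling behind them. Of 45101 probe sets, 64 controls were left out. The platform annotation names 1 gene for 34945, several for 932 and does not list 9160; only those with 1 gene were named. For a gene with several probe sets, the one brightest on average over all arrays (log2 scale) was taken. Of 18193 named genes, 18145 symbols were in a RefSeq gene table (GRCm38.p6). Promoter coordinates are of that build.

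Ratios were taken from deposited values raised to the floor of 101.7 (99.97 after loess). Scaling alternatives used limma 3.58.1 in R 4.3.3; the rest used Python 3.11.15 with pandas 2.3.3. Other floors, thresholds and probe set choices were also run. The ratio step was tested on simulated data. With 1 array per group, 0 tests were run. The gene lists (37, with 829 different genes, 523 analysed) and the members were chosen with earlier results of these data known. Genes named by rule were the 15 largest rises and falls past 2-fold in both scalings (10 rises), 5 markers of the step, up to 4 genes of a list with 2 or more past 2-fold in 1 direction, and the 12 highest genes at 12 h of those 4-fold above basal at 2 h; 40 in all. Other genes are named with their list or set, after their values were seen.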

Additional observations from a re-analysis of the deposited data

How the results depend on the processing

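No paired analysis was possible because each group has 1 array, and no array could be left out. The counts given here follow the order genes that rose, genes that fell, then, of genes above basal at 2 h, those rising further, sustained and falling, then list genes that rose and fell; the main counts were 10, 35, 0, 19, 6, 5 and 19. A floor at the 30th percentile (9.07, 15125 genes) gave 458, 510, 10, 176, 153, 26 and 45, and the 50th percentile (11621 genes) gave 79, 126, 5, 42, 24, 14 and 34. A floor at the 90th percentile (2880 genes) gave 2, 7, 0, 8, 3, 2 and 5; fewer genes were analysed. Quantile normalization and loess each gave 16 rises and 9 list genes that rose. A threshold of 1.5-fold gave 72, 271, 7, 46 and 24 for the first 5 counts, and 3-fold gave 4, 1, 0, 10 and 0. Median centring, averaging a gene's probe sets, another choice of probe set and leaving out probe sets marked as cross-hybridising kept each count within 1.5 times. With probe sets averaged only 4649 genes were analysed, against 6976, so a like count is a larger share there. None of the 40 genes named by rule changed sign in a setting that gave it a value. Of the 32 past 2-fold, 28 stayed past it after loess or quantile normalization. The number was 24 of 31 with the mean of probe sets and 7 of 21 with a floor at the 90th percentile. The largest rises and falls were named only if they passed 2-fold after loess too, so the loess count is fixed in part by that rule. For genes near the floor the ratio is a bound, and the counts change with the floor chosen.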

Other observations

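Lists that the step hardly moved, and single members that differed within them, complete the account of 2 h to 12 h. Of all genes 95.1% held within 1.5-fold, and the counts that held in these lists are to be read beside that share. Of 12 genes of TNF receptor signalling, all held within 1.5-fold, with a median of -0.16 (-0.07 after loess): the receptor gene Tnfrsf1a went from 509 to 437 and the kinase gene Ikbkb from 276 to 279.6. Of 14 cytokines and growth factors none passed 2-fold, and the median was -0.12 (-0.01 after loess). Tgfb2 (294 to 176, log2 -0.75) and Ereg (468 to 283, -0.72) were lower, while Il1rn, the antagonist of interleukin-1, went from 133 to 196 (0.57). Csf1, the macrophage growth factor, read 1363, 1912, 2655 and 2024 on the basal, 0.5, 2 and 12 h arrays.

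Of 12 glycolysis and glucose uptake genes 11 held; Hk2, an inducible hexokinase, read 179, 248, 433 and 253 in the same order (-0.78). Sterol synthesis genes had a median of -0.11 (0.01 after loess), and 19 of 20 held, with Idi1 at -0.59. Casp4, an inflammatory caspase, read 4.003, 15.8, 83.3 and 160.4, and the guanylate-binding protein gene Gbp2 read 9.92, 19.3, 88.6 and 147. Both were highest on the 12 h array, with ratios bounded by the limit of 102 at 0.66 and 0.53. Casp4 and Gbp2 met the limit only at 12 h, so only ratios above 0 were possible for them.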
